A study of Homo sapiens with 6 samples.

Results

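The enzymes that make serine, that move single carbons through folate and that make asparagine were examined as a set of 10 transcripts: PHGDH, PSAT1, PSPH, SHMT1, SHMT2, MTHFD1, MTHFD2, MTHFD1L, ALDH1L2 and ASNS. They were taken by symbol from a table of 29435 gene rows, and each of the 10 had a row. The libraries, 2 groups of 3, were made from poly(A)-selected RNA of a culture labelled as HepG2, a human liver cancer line. The control group received DMSO, the solvent, and the other group received 20 µM saikosaponin A (SsA), a triterpenoid saponin of Bupleurum roots, each for 4 h. No genotype or other agent was given for either group, and whether the 3 libraries of a group are separate cultures is not stated, so the p-values reflect library-to-library spread, which may be technical. Of 17 hepatocyte markers, 10 were measured here. APOA1, APOA2, TF, FGA, FGB, FGG and HNF4A, which a hepatocyte line is known to express, were each below 0.1 FPKM on average, while CPS1 and ABCC2 exceeded 1 FPKM. The label HepG2 is therefore used here only as a name, since 8 of the 10 measured hepatocyte markers were nearly absent. Of 7 measured fibroblast and stellate cell markers 4 exceeded 1 FPKM (COL1A1, COL3A1, PDGFRB and ACTA2), while THY1 and DCN were below 0.1 FPKM. The 7 summed to 34.4 to 45.5 FPKM with DMSO and 29.1 to 35.6 FPKM with SsA. Of 4 measured keratinocyte and other epithelial markers 0 exceeded 1 FPKM, and of 3 measured leukocyte markers only CD68 did. The part of the cells behind these markers in the results was not tested.

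PHGDH, PSAT1 and PSPH convert a glycolytic intermediate to serine in successive steps. The SHMT enzymes split serine into glycine and a carbon unit carried by folate, SHMT1 mainly in the cytosol and SHMT2 in mitochondria. MTHFD2, MTHFD1L and ALDH1L2 handle that unit in mitochondria and MTHFD1 in the cytosol, where it is used to build purines and thymidylate. ASNS makes asparagine from aspartate and glutamine. Several of these genes are known targets of ATF4, the transcription factor of the amino acid and integrated stress responses, which binds composite C/EBP-ATF elements such as the one in the ASNS promoter.

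Transcripts of 7 enzymes were higher with SsA: PHGDH, PSAT1 and PSPH of serine synthesis, SHMT1 and SHMT2, the mitochondrial enzyme MTHFD2, and ASNS. The rises were modest, from 0.28 for SHMT1 to 0.69 for PHGDH on the log2 scale. MTHFD1 and MTHFD1L did not pass the test, and none of the 9 tested enzymes was called lower. ALDH1L2 was barely detected and lay outside the test. In such bulk RNA a change per cell and a change in the share of a kind of cell cannot be told apart. The counts were 7 higher, 0 lower and 2 not passing among 9 tested enzymes, called where edgeR's quasi-likelihood p, adjusted by Benjamini-Hochberg over all 11427 genes tested, was under 0.05. Over all of those genes 25.9% were called higher and 27.9% lower. The median log2 fold change was 0.36 over the 9 enzymes and 0.03 over all genes tested.

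The libraries held 57768359 to 74912492 counts. DMSO replicate 3 and SsA replicate 1 stood apart from the other 4, with 14.9% and 18.8% of their counts on mitochondrially encoded genes against 6.19% to 8.28%. DMSO replicate 3 was the lowest control for 7 of the 9 tested enzymes, and SsA replicate 1 the lowest treated library for 6 of 9. All 9, with the uncalled MTHFD1 and MTHFD1L among them, were higher in SsA replicate 1 than in DMSO replicate 3. The log2 differences, 1 library against 1, ran from 0.16 for MTHFD1 to 0.73 for PHGDH. Matching shares over all genes were not counted, so these counts cannot be read as particular to the enzymes. Without both of these libraries the same 7 enzymes were called higher, beside 33.3% of all genes called higher and 34.5% lower. The libraries kept in that fit were closely alike within each group. Chi-square per gene was 15.5 between DMSO replicates 1 and 2 and 15.2 between SsA replicates 2 and 3. For the other pairs of libraries it was 329 to 765. The p-values of that fit therefore rest on a small spread, which may be technical. A term for DMSO replicate 3 and SsA replicate 1, added after seeing the data, also called those 7, beside 36.5% higher and 35.4% lower. The small spread of the alike libraries entered this fit too, where the SE of PHGDH was 0.04, against 0.17 without the term. With that term and a length correction 7 were called again, beside 30.4% and 26.0%, but PSAT1 was lost (0.07, edgeR adjusted p = 0.127) and MTHFD1 gained (0.55, 1.29e-06). Longer transcripts also had lower fold changes across all genes, and enzyme values corrected for length follow the account of each enzyme.

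**Figure D1:**
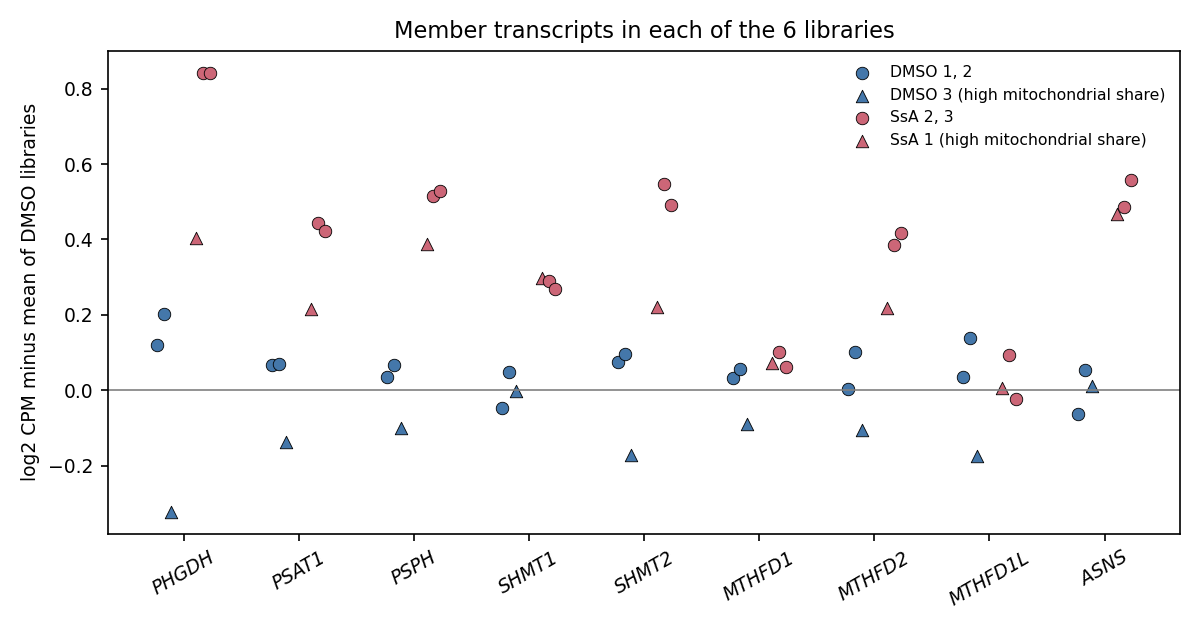
Level of each tested enzyme in the 6 libraries, as log2 CPM minus the mean of the 3 DMSO libraries; blue points are DMSO, red points SsA, and triangles are the 2 libraries with a high mitochondrial share. The SsA points lie above all DMSO points for 8 of the 9 enzymes, MTHFD1L being the exception.

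PHGDH (ENSG00000092621; GRCh38 chromosome 1, 119648411 to 119744218, plus strand) encodes the first enzyme of serine synthesis from glucose. Its normalised level in CPM (counts scaled to library size) was 127, 135 and 93.6 in DMSO replicates 1 to 3 and 155, 210 and 210 in SsA replicates 1 to 3. The SsA libraries were all above the controls, with the 2 libraries of high mitochondrial share lowest in their groups. The log2 fold change was 0.69 ± 0.17 (SE, n = 3 per group; 95% interval 0.29 to 1.09), with an edgeR adjusted p of 0.0127, and it was the largest of the set. Between the 2 libraries of high mitochondrial share the difference was 0.73, and between the other 4 it was 0.68.

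PSAT1 (ENSG00000135069; chromosome 9, 78297125 to 78330093, plus strand) encodes the aminotransferase of the next step. It measured 130, 130 and 113 CPM with DMSO and 144, 169 and 166 CPM with SsA. The groups did not overlap, and the lowest treated library was again SsA replicate 1. PSAT1 rose by 0.36 ± 0.09 on the log2 scale (95% interval 0.15 to 0.58, n = 3 per group; edgeR adjusted p = 0.0137). The call was lost without SsA replicate 2 (0.32, adjusted p = 0.0548) or without SsA replicate 3 (0.33, adjusted p = 0.0525), and with a length correction.

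PSPH (ENSG00000146733; chromosome 7, 56011051 to 56051467, minus strand) encodes the phosphatase that releases serine. Its levels were 38.4, 39.2 and 34.9 CPM with DMSO against 49.0, 53.6 and 54.0 CPM with SsA. Every treated library exceeded every control. The log2 fold change was 0.48 ± 0.08 (95% interval 0.29 to 0.66, n = 3 per group; edgeR adjusted p = 0.00237). Of the 50-base stretches of its longest transcript, 8.36% also occur in another annotated gene, and 3.43% occur in the pseudogene PSPHP1. PSPHP1, singled out after its values were seen, measured 34.0, 33.2 and 22.9 CPM with DMSO and 40.6, 56.4 and 56.4 CPM with SsA (log2 fold change 0.77 ± 0.19, edgeR adjusted p = 0.0126). The sources used here do not give how reads common to both were assigned, so the PSPH value is uncertain to that extent.

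Both serine hydroxymethyltransferases rose. SHMT1 (ENSG00000176974; chromosome 17, 18327860 to 18363563, minus strand) measured 72.6, 77.5 and 74.9 CPM with DMSO and 92.1, 91.7 and 90.2 CPM with SsA. The treated libraries lay close together and all above the controls, with the 2 high-mitochondrial libraries inside or at the edge of a narrow range. Its log2 fold change was 0.28 ± 0.06 (95% interval 0.15 to 0.42, n = 3 per group; edgeR adjusted p = 0.00555). SHMT2 (ENSG00000182199; chromosome 12, 57229573 to 57234935, plus strand) measured 184, 187 and 155 CPM with DMSO against 204, 256 and 246 CPM with SsA. The groups did not overlap here either, but the spread was wider, with DMSO replicate 3 and SsA replicate 1 lowest. SHMT2 rose by 0.42 ± 0.11 on the log2 scale (95% interval 0.16 to 0.68, n = 3 per group; edgeR adjusted p = 0.0167). That call was lost without SsA replicate 2 (0.36, adjusted p = 0.0633) or SsA replicate 3 (0.39, adjusted p = 0.0591). Exons of SHMT2 share 427 bases with an antisense gene, AC137834.2, and exons of SHMT1 share 196 bases with SMCR8 on the opposite strand. The library kit marks the strand, but the sources used here do not give the strand setting of the counting, so reads of such overlaps cannot be told apart.

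The folate dehydrogenases differed from one another. MTHFD2 (ENSG00000065911; chromosome 2, 74198610 to 74215298, plus strand), a mitochondrial enzyme with low expression in most adult tissues and high expression in tumours, measured 194, 207 and 180 CPM with DMSO. It measured 225, 253 and 258 CPM with SsA, every library above the controls. MTHFD2 rose by 0.34 ± 0.08 on the log2 scale (95% interval 0.15 to 0.53, n = 3 per group; edgeR adjusted p = 0.0117). Its exons share 1324 bases with SLC4A5 on the opposite strand.

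MTHFD1 (ENSG00000100714; chromosome 14, 64388031 to 64463457, plus strand), the cytosolic enzyme with 3 activities on folate, measured 362, 368 and 332 CPM with DMSO and 372, 379 and 369 CPM with SsA. The treated libraries lay just above all controls, by less than the distance between replicates. Its log2 fold change of 0.08 ± 0.06 did not pass the test (95% interval -0.07 to 0.23, n = 3 per group; edgeR adjusted p = 0.336). MTHFD1L (ENSG00000120254; chromosome 6, 150865549 to 151101887, plus strand), the mitochondrial formate producer, measured 49.4, 53.2 and 42.8 CPM with DMSO and 48.5, 51.5 and 47.5 CPM with SsA. The groups overlapped throughout. Its log2 fold change was 0.02 ± 0.09 (95% interval -0.20 to 0.24, n = 3 per group; edgeR adjusted p = 0.866), so a rise as large as that of PHGDH lies outside the interval.

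ALDH1L2 (ENSG00000136010; chromosome 12, 105019784 to 105084458, minus strand) encodes the mitochondrial enzyme that oxidises formyl-folate. Only 49, 73 and 59 counts were found with DMSO and 21, 16 and 44 with SsA. These correspond to 0.629, 0.907 and 1.05 CPM against 0.402, 0.236 and 0.703 CPM, and the exact 95% Poisson intervals, which cover counting error only, ran from 0.711 to 1.14 CPM in DMSO replicate 2 and from 0.135 to 0.383 CPM in SsA replicate 2. The groups overlapped, SsA replicate 3 exceeding DMSO replicate 1. ALDH1L2 failed the expression filter. In a fit without that filter its log2 fold change was -0.89 (edgeR adjusted p = 0.263).

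ASNS (ENSG00000070669; chromosome 7, 97851677 to 97872542, minus strand) had the smallest p of the set. It measured 29.7, 32.2 and 31.3 CPM with DMSO and 43.0, 43.5 and 45.7 CPM with SsA. Both groups were tight and well separated, and the 2 libraries of high mitochondrial share did not stand apart. The log2 fold change was 0.50 ± 0.07 (95% interval 0.35 to 0.66, n = 3 per group; edgeR adjusted p = 0.00103). A same-strand annotated gene, AC079781.5, contains 82.0% of the 50-base stretches of the longest ASNS transcript. That gene was not analysed here, and reads from its locus cannot be told apart from ASNS reads.

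The 300-base window around the ASNS start is shown because it holds a match to the C/EBP-ATF element, and a window of MTHFD1L is shown because it holds a match although that transcript did not pass the test. Both are RefSeq sequences on GRCh38.p14, written 5′ to 3′ on the gene's strand from 250 bases before to 50 bases after the start, with the match to TGATGNAA in capitals. The ASNS window is chr7:97872359-97872658 on the minus strand and the MTHFD1L window chr6:150866236-150866535 on the plus strand.
ASNS: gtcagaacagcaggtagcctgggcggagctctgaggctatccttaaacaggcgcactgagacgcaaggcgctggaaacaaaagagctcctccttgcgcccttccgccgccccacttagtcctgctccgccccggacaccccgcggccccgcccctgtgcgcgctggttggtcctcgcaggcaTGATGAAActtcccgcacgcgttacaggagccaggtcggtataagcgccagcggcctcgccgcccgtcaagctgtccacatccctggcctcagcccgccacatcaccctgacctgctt
MTHFD1L: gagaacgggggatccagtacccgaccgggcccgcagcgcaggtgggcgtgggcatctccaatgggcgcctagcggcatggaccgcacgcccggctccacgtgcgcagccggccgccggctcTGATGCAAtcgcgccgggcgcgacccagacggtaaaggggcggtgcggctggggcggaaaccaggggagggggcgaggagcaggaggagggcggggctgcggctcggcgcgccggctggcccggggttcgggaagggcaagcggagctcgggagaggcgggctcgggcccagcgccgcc
The match begins 68 bases before the start in ASNS and 129 bases before it in MTHFD1L. Relative to other annotated starts of MTHFD1L the same site begins at -90 and 25. Each of these genes also had a window with no match. Promoter sequences were found for 7 of the 10 genes, in 11 windows, and these 2 genes were the ones with a match on either strand. Of 35116 promoters of the same length, 3.62% hold TGATGNAA on either strand. Counted by gene, 4.46% of 27305 genes hold it in any of their promoters. The E-box CACGTG, held by 7.26% of promoters and 8.77% of genes, was matched in MTHFD1 and MTHFD1L. The antioxidant element core TGACNNNGC, held by 13.3% of promoters and 16.1% of genes, was matched in MTHFD2. The 3 patterns do not overlap one another in these windows. A match says only that these letters occur in the window, and ASNS and MTHFD1L, which share the first pattern, had log2 fold changes of 0.50 and 0.02.

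Enzymes of the set were then set against genes of similar length, because longer transcripts had lower log2 fold changes over 10040 protein-coding genes (Spearman's rho = -0.72, across genes, which are not independent replicates). Beside the 500 tested genes nearest in length, PHGDH, SHMT2, MTHFD1, MTHFD2 and ASNS lay above the upper quartile. PHGDH exceeded the median of its length neighbours by 0.63, MTHFD1 by 0.55, MTHFD2 by 0.49, SHMT2 by 0.43 and ASNS by 0.21 on the log2 scale. PSAT1, PSPH, SHMT1 and MTHFD1L lay between the quartiles, PSAT1 only 0.04 above the median. Thus 4 of the 7 enzymes called higher also lay above the upper quartile of genes of their length. The 7 were called on these same fold changes, so a high place among neighbours is in part built in. The share of all called genes above their own quartile was not counted.

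**Figure D2:**
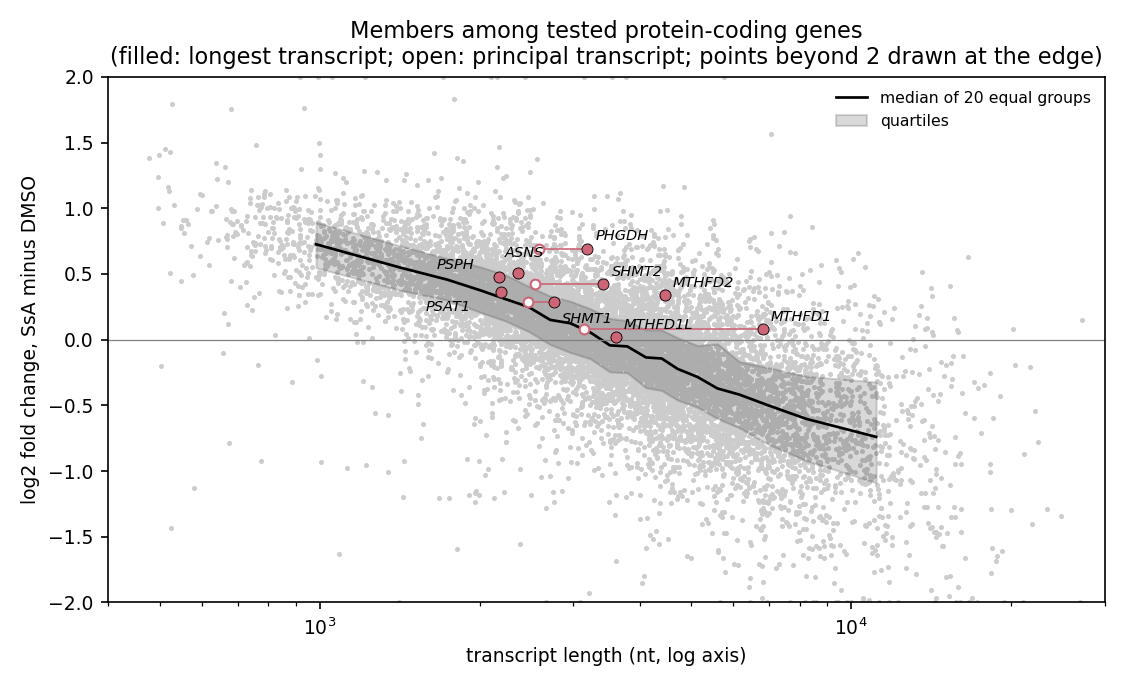
Log2 fold change against transcript length (log axis) for tested protein-coding genes in grey, with the median and quartiles of 20 equal groups; filled red points are the enzymes at the length of their longest transcript, and open points at that of their principal transcript where it differs. PHGDH, SHMT2 and MTHFD2 lie above the grey band, PSAT1 lies near its median, and MTHFD1 moves from above the band to within it when its shorter length is used.

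With a length correction by the longest transcript, 5 enzymes were called higher and 0 lower, beside 16.0% and 14.8% of all genes tested. These were PHGDH (0.66, edgeR adjusted p = 0.0239), SHMT2 (0.43, 0.0238), MTHFD1 (0.55, 0.00203), MTHFD2 (0.53, 0.00478) and ASNS (0.26, 0.0219). PSAT1 (0.07, adjusted p = 0.502), PSPH (0.18, 0.0702) and SHMT1 (0.15, 0.0883) no longer passed. The longest annotated MTHFD1 transcript has 6814 nt and its principal transcript, the one that the APPRIS annotation marks as the main isoform, 3136 nt. With the principal transcript's length, a setting added after MTHFD1 had been called, 6 enzymes were higher beside 16.7% of all genes. MTHFD1 then did not pass (0.15, adjusted p = 0.129), nor did PSAT1 (0.19, 0.124), while PSPH (0.30, 0.0177) and SHMT1 (0.18, 0.0458) did. PHGDH, SHMT2, MTHFD2 and ASNS were called higher in all 3 of these fits.

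**Figure D3:**
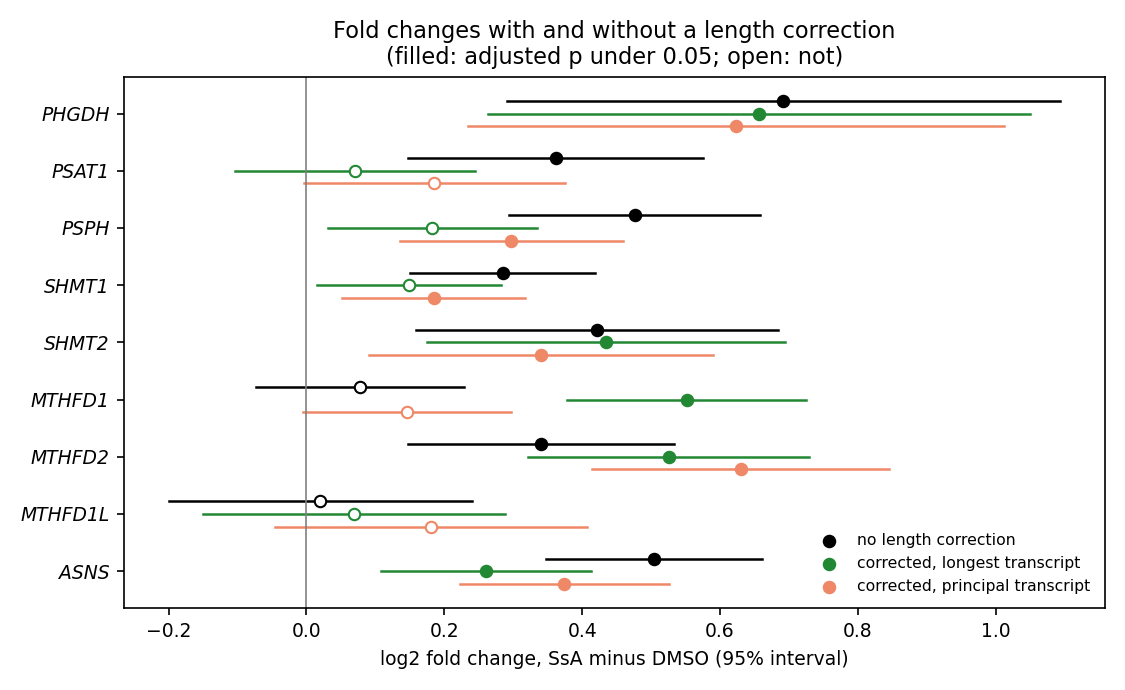
Log2 fold change with 95% interval for the 9 tested enzymes, without a length correction (black), corrected by the longest transcript (green) and by the principal transcript (orange); filled points have an adjusted p under 0.05. PHGDH, SHMT2, MTHFD2 and ASNS are filled in all 3, and MTHFD1 is filled only with the longest transcript.

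Calls also changed with the deposited FPKM, a setting that differs from the main one in unit, scaling and test together. On the deposited FPKM, as log2(FPKM + 1) in limma, ASNS alone was called higher (adjusted p = 0.0450), beside 8.00% of all genes called higher and 32.6% called lower. The median log2 fold change of all genes was -0.11 on that scale. On TPM, obtained by rescaling FPKM, 0 enzymes were called higher, beside 0.429% of all genes, and the median of all genes was -0.31. PHGDH showed the shift plainly: its FPKM was 13.2, 14.0 and 8.35 with DMSO and 12.6, 19.3 and 19.1 with SsA, so that SsA replicate 1 fell among the controls. ASNS, at 5.77, 6.27 and 5.23 FPKM with DMSO and 6.57, 7.52 and 7.80 FPKM with SsA, was the 1 tested enzyme of 9 whose groups stayed apart in FPKM, beside 12.6% of all genes apart and higher and 38.6% apart and lower. In CPM 8 of the 9 stayed apart, all higher, beside 30.4% of all genes apart and higher and 32.4% apart and lower.

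Levels can be compared between genes only per length, and the order depended on the length used. On deposited FPKM, PSAT1 was the most abundant (51.5 ± 8.28 FPKM with DMSO, SD, n = 3), ahead of MTHFD2 (36.7 ± 5.43) and SHMT2 (35.0 ± 6.26), of which the last 2 did not differ beyond their spread. ASNS (5.76 ± 0.519) was lowest of the tested enzymes, and ALDH1L2 stood at 0.0803 ± 0.0165 FPKM. The length implied by FPKM was divided, in each library, by the median ratio of implied length to exon union over tested genes (1.13 to 1.18). A typical gene therefore matches its exon union by construction. The length so scaled was far above the principal transcript for some genes. For PHGDH it was 9185 nt, against 9217 nt for the union of its annotated exons and 2585 nt for its principal transcript. For MTHFD1 it was 12198 nt, above both its exon union of 9377 nt and its principal transcript of 3136 nt. Per kb of the principal transcript, a scale chosen after seeing the data, MTHFD1 led with 113 ± 6.10 CPM per kb in DMSO. SHMT2 followed at 69.3 ± 6.94 and PSAT1 at 56.9 ± 4.58. PHGDH (45.8 ± 8.46) and MTHFD2 (43.5 ± 3.09) did not differ beyond their spread, nor did MTHFD1L (13.4 ± 1.46) and ASNS (13.2 ± 0.540). With SsA the level of PHGDH was 74.1 ± 12.3 CPM per kb beside 73.1 ± 6.23 for PSAT1, and ASNS reached 18.7 ± 0.612 against 13.6 ± 0.586 for MTHFD1L.

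**Figure D4:**
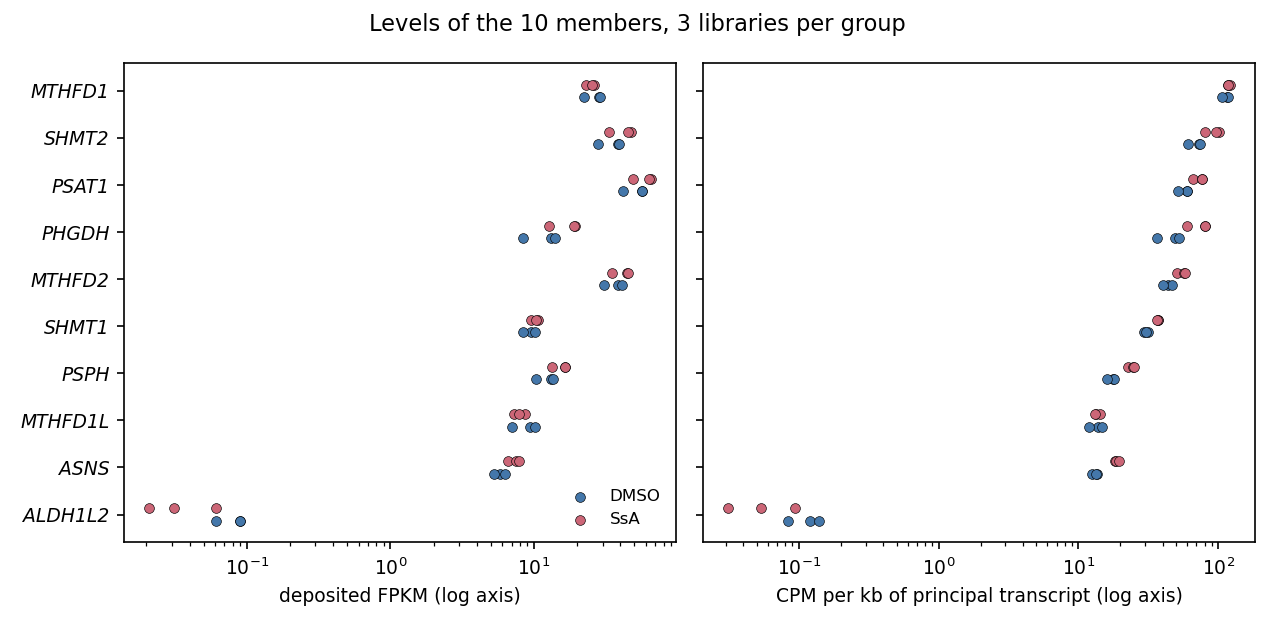
Level of each of the 10 enzymes in the 6 libraries on log axes, as deposited FPKM (left) and as CPM per kb of the principal transcript (right); blue points are DMSO and red points SsA, 3 libraries each. MTHFD1 leads on the right but not on the left, and ALDH1L2 lies far below the other 9 on both.

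Ratios between enzymes within a library do not depend on how libraries are scaled, but they do depend on a length correction. The log2 ratio of mitochondrial MTHFD2 to cytosolic MTHFD1 was -0.90, -0.83 and -0.88 with DMSO and -0.72, -0.59 and -0.52 with SsA, a difference of 0.26 with no overlap. The ratio of PSAT1 to PHGDH was 0.03, -0.05 and 0.27 with DMSO and -0.10, -0.31 and -0.33 with SsA, a difference of -0.33, also with no overlap. In both cases the exact two-sided permutation p was 0.1, the smallest that 3 libraries against 3 allow, and 0.3 after Benjamini-Hochberg adjustment over 6 ratios. The SHMT2 to SHMT1 ratio differed by 0.13, MTHFD1L to MTHFD1 by -0.05, PSPH to PHGDH by -0.22 and ASNS to PHGDH by -0.19, each with overlapping groups. Their exact permutation p-values ran from 0.3 to 0.5. The difference in log2 fold change between MTHFD2 and MTHFD1 was -0.03 with the correction by the longest transcript and 0.48 with that by the principal transcript. Between PSAT1 and PHGDH it was -0.59 and -0.44.

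Beyond the enzymes, 62 genes that supply or use the same metabolites were listed in 8 groups. Of the 50 tested, 23 rose, 6 fell and 21 did not pass, with a median log2 fold change of 0.18, beside 25.9% of all genes called higher and 27.9% lower. With the length correction by the longest transcript, 10 were higher and 3 lower, beside 16.0% and 14.8% of all genes. By group, higher and lower were then 0 and 1 for folate, 1 and 1 for the methionine cycle, and 2 and 0 for purine synthesis. They were 1 and 0 for glycine cleavage, 0 and 0 for serine carriers and breakdown, and 2 and 1 for regulators. Aspartate, glutamine and asparagine genes had 2 and 0, as had other amino acid synthesis. With that by the principal transcript, 20 were higher and 1 lower, beside 16.7% and 13.2%.

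Among 11 tested folate genes, 3 rose and 2 fell, beside 25.9% of all genes called higher and 27.9% lower. The same shares stand beside the counts of the other groups below, and no group was tested as a list. TYMS, thymidylate synthase, had a log2 rise of 0.44 ± 0.06 (edgeR adjusted p = 0.00118), and MTHFS, which salvages formyl-folate, one of 0.71 ± 0.17 (0.0105). SLC46A1, a folate carrier, fell by 0.29 ± 0.07 (edgeR adjusted p = 0.0150), but its value was 0.14 with the length correction. After that correction TYMS stood at 0.01 (adjusted p = 0.906) and MTHFS at 0.14 (0.439).

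In the methionine cycle and transsulfuration, 3 of 7 tested genes rose and 1 fell. AHCY, which hydrolyses S-adenosylhomocysteine, rose by 0.44 ± 0.07 (edgeR adjusted p = 0.00187), and CTH, which makes cysteine from cystathionine, by 0.26 ± 0.07 (0.0191). MTR, methionine synthase, measured 94.9, 91.4 and 88.0 CPM with DMSO and 54.1, 55.2 and 55.9 CPM with SsA, with no overlap. It fell by 0.73 ± 0.06 (edgeR adjusted p = 0.000186), and with the length correction, its transcript being 10529 nt long, the value was -0.03 (0.809). CTH changed sign under that correction, to -0.07 (adjusted p = 0.504), and AHCY stood at 0.20 (0.0348).

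Of 8 purine synthesis genes, 5 rose and 1 fell. ADSL, adenylosuccinate lyase, rose by 0.53 ± 0.09 (edgeR adjusted p = 0.00236) and stayed higher with the length correction (0.70, 0.00177). ATIC, which performs the last steps to IMP, rose by 0.37 ± 0.06 (0.00170), against 0.11 (0.150) when corrected. PFAS fell by 0.52 ± 0.10 (0.00484), against -0.21 (0.200) when corrected. Of 2 tested glycine cleavage genes, GCSH, the lipoyl carrier protein, rose by 0.61 ± 0.09 (0.00167), or 0.42 (0.00850) with the length correction. None of 3 tested serine carrier or breakdown genes passed in edgeR, the smallest adjusted p being 0.302 for SRR, serine racemase, at 0.17 ± 0.13.

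Aspartate, glutamine and asparagine genes rose in 4 of 5 cases, with 0 lower. GOT1, the cytosolic aspartate aminotransferase, rose by 0.39 ± 0.06 (edgeR adjusted p = 0.00142), and ASRGL1, an asparaginase, by 0.49 ± 0.08 (0.00296). With the length correction GOT1 stood at 0.30 (0.00694), while ASRGL1 no longer passed (0.23, 0.0677). In other amino acid synthesis 3 of 6 rose and 1 fell. BCAT2, a mitochondrial branched-chain aminotransferase, rose by 0.39 ± 0.08 (0.00555), against 0.12 (0.270) with the length correction. BCAT1, the cytosolic branched-chain enzyme, fell by 0.28 ± 0.07 (0.0168), but with the length correction it was higher, at 0.38 (0.0173).

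Of 8 regulators, 4 rose and 1 fell. With the length correction 2 were higher and 1 lower, beside 16.0% and 14.8% of all genes, and the lowest value was -0.50. ATF4 measured 205, 201 and 208 CPM with DMSO and 332, 335 and 339 CPM with SsA, groups that were tight and far apart. Its log2 rise was 0.71 ± 0.05 (edgeR adjusted p = 0.000148), or 0.37 (0.00397) with the length correction. CEBPB, a partner of ATF4 on composite elements, rose by 0.63 ± 0.07 (0.000662), or 0.27 (0.0347) with the length correction. EIF2AK4, the kinase GCN2 that senses uncharged tRNA, fell by 0.18 ± 0.06 (0.0323), and its value was 0.16 (0.0759) with the length correction.

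**Figure D5:**
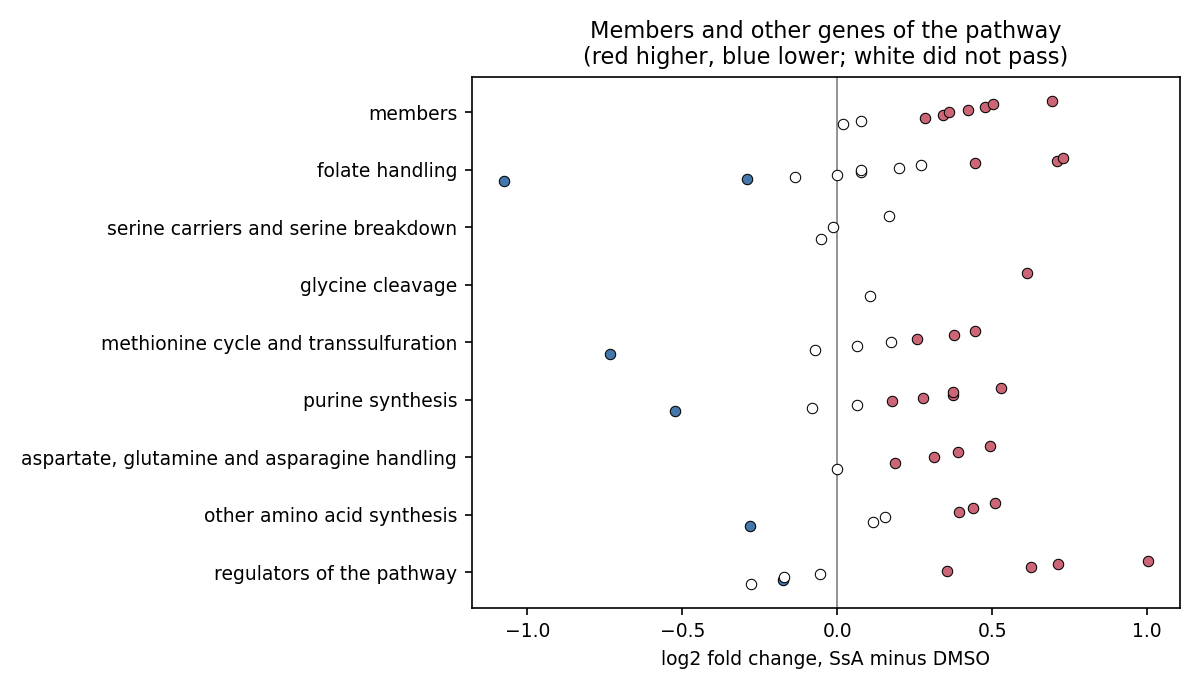
Log2 fold change of the 9 tested enzymes (top row) and of the 50 tested genes of the 8 pathway groups, 1 point per gene; red points were called higher and blue points lower at an adjusted p under 0.05. The top row has 7 red points and no blue point, while MTR is the blue point of the methionine cycle row.

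The transcripts whose pattern over the 6 libraries lay nearest to that of PHGDH, the enzyme with the largest rise, were MYDGF, PSMD4, OAZ1, SNHG15 and MRPL22. They were taken from 9774 candidates by the root mean square difference in log2 CPM centred on the DMSO mean. That difference ran from 0.0213 for MYDGF to 0.0330 for MRPL22. Their log2 fold changes lay between 0.66 for PSMD4 and 0.72 for OAZ1. That these lie near the 0.69 of PHGDH follows from how the genes were chosen. With the length correction PHGDH stood at 0.66, OAZ1 at 0.61, SNHG15 at 0.67 and MRPL22 at 0.63, and the shorter MYDGF and PSMD4 at 0.12 and 0.16.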

How the data were processed

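Reads were handled with GRCh38, cutadapt 1.9, StringTie 1.3.4d and HISAT2 2.0.4, per the submitters' processing notes. The authors deposited 1 table with a whole-number read count and an FPKM for each gene and library; no source used here gives the counting step. Counts were tested with edgeR 4.0.16 in R 4.3.3 (TMM scaling, quasi-likelihood test, two-sided, Benjamini-Hochberg over all genes) for genes that reached 1 FPKM in 3 or more of the 6 libraries. CPM values use TMM-scaled library sizes. Standard errors were computed from the log2 fold change and its F statistic. limma 3.58.1 and DESeq2 1.42.0 served as alternatives. Transcript lengths came from GENCODE 29, whose gene IDs matched 28679 of 29435 rows. The length correction entered a smooth trend of each library's log2 ratio on log2 length as an offset. Totals of 57768359 to 74912492 counts left a biological coefficient of variation of 15.3%. The fits were also run on simulated counts with fewer genes changed, by larger folds, and without library classes. That setting differs from these data, so it does not bear on the calls made here. Alternatives covered scaling, unit, pseudocount, filter, left-out libraries, the replicate block and length.

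All 10 enzymes are named, with up to 2 genes called in each direction per group by smallest p, ATF4, and the 5 nearest patterns to the largest rise. Some genes that this rule would name are not reported here. The enzymes and lists were chosen with earlier results of these data known. The term for library class, the correction by principal transcript and CPM per kb were added after seeing the data. A planned comparison of protein sequences was not run, and shared 50-base stretches were counted in its place. Same-numbered libraries deviated together in 1 of 3 pairs (r = -0.34, 0.29 and -0.35), so the main fit did not use the numbers as pairs. The replicate block, run as an alternative, did use them. The highest r was 0.55, between DMSO replicate 3 and SsA replicate 1, which that block does not pair.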

Additional observations from a re-analysis of the deposited data

How the results depend on the processing

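With another count scaling (RLE or upper quartile), DESeq2, no expression filter or the replicate block, the same 7 enzymes were called higher. The shares of all genes called higher were 25.9% with RLE, 30.0% with upper quartile and 29.2% with DESeq2. They were 9.95% without the filter and 18.15% with the replicate block. In the same order the shares called lower were 27.8%, 25.1%, 30.0%, 10.8% and 22.2%. These 7 enzymes were also called with a term for the 2 libraries of high mitochondrial share and without those 2 libraries. The p-values of these fits rest on the small spread of closely alike libraries. No enzyme was called lower in any setting run. Leaving out each library gave 5 to 7 enzymes higher, 17 to 22 pathway genes higher and 5 to 6 lower, beside 17.5% to 27.6% of all genes higher and 22.7% to 28.4% lower. The 5 came without SsA replicate 2 or 3, where PSAT1 and SHMT2 were lost. The log2 fold changes then ran from 0.53 to 0.82 for PHGDH, 0.28 to 0.43 for PSAT1, 0.41 to 0.52 for PSPH, 0.26 to 0.31 for SHMT1, 0.32 to 0.51 for SHMT2, 0.017 to 0.10 for MTHFD1, 0.27 to 0.40 for MTHFD2, -0.079 to 0.088 for MTHFD1L and 0.47 to 0.53 for ASNS.

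On log2(FPKM + 1) and log2(FPKM + 0.1), in that order, PHGDH stood at 0.50 and 0.53, PSAT1 at 0.19 and 0.20, PSPH at 0.29 and 0.31, SHMT1 at 0.11 and 0.12, SHMT2 at 0.25 and 0.26, MTHFD2 at 0.17 and 0.18, MTHFD1 at -0.081 and -0.084, and MTHFD1L at -0.12 and -0.14. SRR stood at -0.000682 and -0.00127. In both settings 1 enzyme and 2 pathway genes were higher, beside 8.00% and 7.75% of all genes. On log2(TPM + 1) the values were PHGDH 0.32, PSAT1 -0.0035, PSPH 0.11, SHMT1 -0.078, SHMT2 0.055, MTHFD1 -0.28, MTHFD2 -0.024, MTHFD1L -0.33, ASNS 0.13, SRR -0.19 and CTH -0.10, with 0 enzymes and 0 pathway genes higher and 2 pathway genes lower. With a mean FPKM of at least 5, MTHFD1 stood at -0.038 and MTHFD1L at -0.095. MTHFD1L was also negative without DMSO replicate 3 and SsA replicate 1 together (-0.078), without DMSO replicate 3 alone (-0.079) and without SsA replicate 2 (-0.015). Without the filter 3 pathway genes were lower.

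With the length correction PSAT1 stood at 0.071, PSPH at 0.18, SHMT1 at 0.15 and MTHFD1 at 0.55, with 10 pathway genes higher and 3 lower. SLC46A1 (0.14), CTH (-0.074), BCAT1 (0.38) and EIF2AK4 (0.16) changed sign. With the principal transcript these were 0.22, -0.029, 0.45 and 0.25, MTR was 0.037, PSAT1 was 0.19, and 1 pathway gene was lower. With library class and length together PSAT1 stood at 0.071, MTHFD1 at 0.55, SLC46A1 at 0.14, CTH at -0.071, BCAT1 at 0.38 and EIF2AK4 at 0.16. The cause of these changes was not tested.

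The replicate block alone left 18 pathway genes higher and 4 lower, beside 18.15% and 22.2% of all genes. The replicate block with the length correction left 2 enzymes and 7 pathway genes higher and 0 lower, beside 8.63% and 8.26% of all genes. The 2 enzymes were MTHFD2 (0.53, edgeR adjusted p = 0.0289) and MTHFD1 (0.55, 0.0215). Calls were lost for PHGDH (0.66, 0.0638), SHMT2 (0.43, 0.0673), ASNS (0.26, 0.0872), PSAT1 (0.071, 0.603), PSPH (0.18, 0.188) and SHMT1 (0.15, 0.221). SLC46A1 stood at 0.14, CTH at -0.073, BCAT1 at 0.38 and EIF2AK4 at 0.16. Other named pathway genes lost their call or changed their count by list in part of the settings. ALDH1L2 had 16 to 73 counts per library, the fewest of the set.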
